A study of Mus musculus with 96 samples.

Results

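The cytosolic ribosomal protein genes were followed in mouse back-skin epidermis through a day in constant darkness, in mice whose circadian clock ran in different tissues. Members were taken by name: Rpl and Rps followed by a number and at most the letters a, x, y or l, together with Rplp0, Rplp1, Rplp2 and Rpsa, without pseudogenes and without the Rps6 kinases. Of 83 such names, 78 averaged 3 or more on the log2 RPKM scale (RPKM being reads scaled by exon length and by library size) over all 96 libraries and were kept, out of 22497 genes in the tables. They comprised 32 genes of the small subunit, with Rpsa among them, and 46 of the large subunit. Rps4l was just inside the limit at 3.98, with Rps15a next at 5.88, and Rpl39 was just outside at 2.86. The other 4 names left out averaged between -5.92 and -2.85. A further 6 listed genes, Fau, Rack1, Rps3a1, Rpl22l1 and Rpl7l1 among them, also encode ribosomal proteins or relatives of them, but their names fall outside the rule, so they are described separately.

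All mice were C57BL/6 females of 8 weeks, and each of the 24 combinations of genotype and time had 4 mice, with 1 polyA RNA library per mouse. RERE mice carried Arntl stopFL/stopFL with both K14Cre tg/wt and Syt10-Cre tg/wt, and are labelled as reconstituted in brain and epidermis. EpiRE mice carried the same Arntl alleles with K14Cre tg/wt and Syt10-Cre wt/wt, and are labelled as reconstituted in epidermis. BRE mice carried the same Arntl alleles with K14Cre wt/wt and Syt10-Cre tg/wt, and are labelled as reconstituted in brain. WT mice were Arntl wt/wt and carried both Cre transgenes, K14Cre wt/tg and Syt10-Cre tg/wt. Arntl encodes the clock factor BMAL1, K14Cre acts in keratin 14 expressing epithelium, and Syt10-Cre acts in the suprachiasmatic nucleus and in some other neurons. There was no group without any functional Arntl and no group without Cre. Skin was taken at CT0, CT4, CT8, CT12, CT16 and CT20 (circadian hours, CT0 being the hour at which lights had come on) after 156 to 176 h in darkness, and epidermis was separated with dispase. The design asks which rhythms of the epidermis need a clock in the tissue itself, in the brain, or in both.

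Each cytosolic ribosome holds 1 copy of nearly every ribosomal protein, so cells keep the output of these genes balanced. Their mRNAs are among the most abundant of the cell, and most begin with a 5′ terminal oligopyrimidine tract, a run of C and T at the start of transcription through which the TOR kinase pathway sets how strongly the mRNA is translated. In liver, ribosome biogenesis and the translation of these mRNAs are known to follow the daily feeding cycle, with much of the control after transcription. In epidermis, basal keratinocytes divide and make protein for growth, and suprabasal cells turn to keratins and barrier proteins.

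The bases around the start of transcription are shown for the 9 members that passed a rhythm or level test below over their full set of libraries and have an entry in the promoter table, since the known oligopyrimidine tract of such genes would lie there. Each window holds 25 bases either side of a start in the RefSeq annotation of GRCm38.p6, read 5′ to 3′ on the transcribed strand, with the longest run of C and T in capitals. On the plus strand the windows are chr17:24720038-24720087 for Rps2, chr9:66946061-66946110 for Rps27l at its upstream start, chr9:66946388-66946437 for Rps27l at its downstream start and chr2:26910782-26910831 for Rpl7a. Also on the plus strand are chr17:28328446-28328495 for Rpl10a at its upstream start, chr17:28328540-28328589 for Rpl10a at its downstream start, chr5:115559442-115559491 for Rplp0 and chr7:141447626-141447675 for Rplp2. On the minus strand they are chr10:128626482-128626531 for Rps26, chr4:136053369-136053418 for Rpl11 and chr10:128549144-128549193 for Rpl41.
Rps2: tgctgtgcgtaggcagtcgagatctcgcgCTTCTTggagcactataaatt
Rps26: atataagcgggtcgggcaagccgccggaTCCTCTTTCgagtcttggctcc
Rps27l, upstream start: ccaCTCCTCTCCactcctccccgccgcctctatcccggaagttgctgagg
Rps27l, downstream start: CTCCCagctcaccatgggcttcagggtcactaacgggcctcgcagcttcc
Rpl7a: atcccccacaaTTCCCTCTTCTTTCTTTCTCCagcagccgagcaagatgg
Rpl10a, upstream start: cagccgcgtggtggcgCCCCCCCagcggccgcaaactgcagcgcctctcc
Rpl10a, downstream start: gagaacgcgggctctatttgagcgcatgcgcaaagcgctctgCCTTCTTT
Rpl11: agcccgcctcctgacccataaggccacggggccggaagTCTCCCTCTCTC
Rpl41: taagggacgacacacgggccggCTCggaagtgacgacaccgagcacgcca
Rplp0: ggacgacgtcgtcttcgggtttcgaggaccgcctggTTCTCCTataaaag
Rplp2: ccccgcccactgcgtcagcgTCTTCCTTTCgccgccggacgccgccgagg
The longest run had 6 bases in Rps2, 9 in Rps26, 9 and 5 in Rps27l, 21 in Rpl7a, 7 and 8 in Rpl10a, 12 in Rpl11, 3 in Rpl41, 7 in Rplp0 and 10 in Rplp2. It spans the annotated start in Rpl7a and Rplp2 and lies to one side of it in the other windows.

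The promoter table had an entry for 57 of the 78 members, with 68 starts in all, since 7 members had 2 starts and 2 had 3. A run of 8 or more C or T on the transcribed strand within 25 bases of the start was present at 31 of the 68 member starts (45.6%), against 6464 of all 32851 starts in the table (19.7%). The ETS-type motif CCGGAAG, searched on both strands of the 300 bases from 250 before to 50 after the start, was present at 24 of the 68 member starts (35.3%), against 2910 of all starts (8.86%). The complement of this motif, CTTCCGG, begins with 5 pyrimidines and can overlap a run of C and T. These are matches of letters in a window and say nothing of whether a factor binds there.

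Depth recovered from the deposited values was 11076390 to 19888883 assigned reads per library, with a mean of 14839957 in RERE, 14833620 in EpiRE, 14964159 in BRE and 15444439 in WT. Keratinocyte markers were abundant in every group (Krt10 averaged 13.09 and Krt5 12.55 log2 RPKM), while all listed markers of fibroblasts (6), endothelium (5) and adipocytes (4) averaged below 0. Arntl averaged 3.89 ± 0.78 log2 RPKM in RERE, 4.16 ± 0.31 in EpiRE, 3.88 ± 0.14 in BRE and 3.88 ± 0.83 in WT (SD, n = 24 each). The per-gene value does not show whether the stop cassette was removed, so it checks the genotype labels only in part.

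The ribosomal protein genes were among the highest expressed genes of the tissue. The median member averaged 8.82 log2 RPKM, against 3.39 for the median of all genes tested, and 59 of the 78 members averaged over 8. They took 3.48% ± 0.39 of the reads in RERE, 3.47% ± 0.30 in EpiRE, 3.46% ± 0.23 in BRE and 3.54% ± 0.43 in WT (SD, n = 24 each). Per length, as a share of the summed RPKM, they took 11.4% ± 0.87 in RERE, 11.4% ± 0.82 in EpiRE, 11.3% ± 0.67 in BRE and 11.6% ± 1.01 in WT. The genotypes overlapped throughout in both measures. Each member rested on many reads: 226.6 per library on average for Rps4l, the least covered, and 6436 for the median member.

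Levels differed far more between members than between mice. In the small subunit, Rps26, which sits near the mRNA exit and is needed for recognition of some mRNAs, averaged 10.29 log2 RPKM, second among all members, and Rps15a averaged 5.88. Rps6, the substrate of the S6 kinases, averaged 7.93 log2 RPKM in RERE, 7.94 in EpiRE, 7.93 in BRE and 7.93 in WT. Rpsa, the laminin receptor related protein of the small subunit, averaged 7.84 in RERE, 7.82 in EpiRE, 7.85 in BRE and 7.88 in WT. For both genes the spread within a genotype (SD 0.09 to 0.16, n = 24) exceeded the distance between genotypes. In the large subunit, Rpl5 and Rpl11, which together with 5S RNA bind the p53 regulator MDM2 when ribosome assembly is disturbed, averaged 7.71 and 9.03 in RERE, 7.73 and 9.05 in EpiRE, 7.71 and 9.08 in BRE, and 7.75 and 9.05 in WT.

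The P stalk, which recruits elongation factors to the ribosome, was encoded by some of the highest members. Rplp0, its anchor, averaged 10.39 log2 RPKM over all libraries and was the highest of the 78. Rplp2 averaged 10.24 in RERE, 10.25 in EpiRE, 10.22 in BRE and 10.30 in WT. Rplp1 averaged 9.97 in RERE, 9.92 in EpiRE, 9.98 in BRE and 9.97 in WT. The lengths behind these RPKM values set part of the order: the exon length implied by the authors' values was 390 bases for Rps29 and 7304 bases for Rps24, with Rps15a (5134), Rps3 (4778) and Rpl22 (4450) among the longest. RPKM divides by that length, so a long annotated exon lowers the value of its gene.

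The 78 genes largely moved together from mouse to mouse. The mean over members was 8.63 log2 RPKM, and its SD over the 96 libraries was 0.13, as large within a genotype and time (0.13) as over all libraries. Subtracting each library's set mean lowered the median SD of a member from 0.15 to 0.06. Within genotype and time, the median SD was 0.14 for members and 0.16 for the 10950 other tested genes.

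In 6 libraries all 78 members lay above their own mean over all libraries. These were RERE CT0 replicate 3 (set mean 0.44 above the overall mean) and replicate 2 (0.39), EpiRE CT0 replicate 3 (0.27), and WT CT4 replicate 4 (0.39), CT4 replicate 3 (0.38) and CT0 replicate 2 (0.34). In 4 libraries all 78 lay below: RERE CT4 replicate 4 (-0.15), EpiRE CT4 replicate 2 (-0.24), EpiRE CT20 replicate 3 (-0.17) and WT CT20 replicate 2 (-0.12). At least 77 members were above in 11 libraries, and at most 1 in 12. Members did not move together in every library. In EpiRE CT0 replicate 1 the set lay at -0.19, yet 22 members were above their own mean. In RERE CT0 replicate 1, also at -0.19, 1 member was. No BRE library was in either group of libraries with all members on one side.

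**Figure D1:**
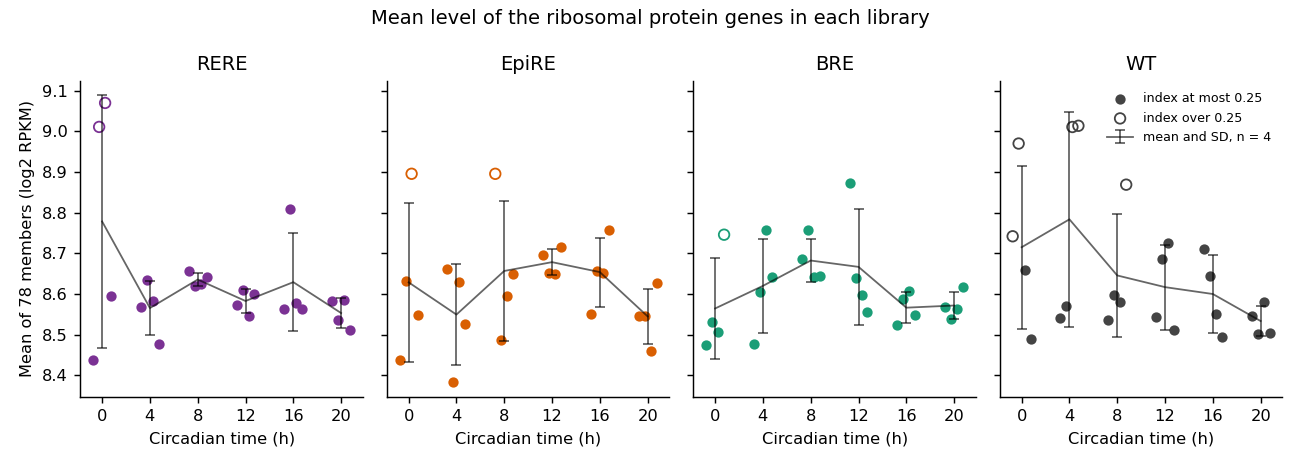
Mean log2 RPKM of the 78 ribosomal protein genes in each library (points) against circadian time in RERE, EpiRE, BRE and WT, with the mean ± SD of the 4 libraries of each time (line and bars). Open circles are libraries whose length index is over 0.25, and the RERE libraries at CT0 and the WT libraries at CT0 and CT4 spread most.

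In libraries where short genes in general stood highest against long genes, the set was high too, though the reverse did not always hold. A length index was computed per library as the median deviation of 692 short genes outside the set (up to 1000 exon bases) minus that of 2307 long genes (over 6000 bases). The index was over 0.25 in 10 libraries, 2 of RERE, 2 of EpiRE, 1 of BRE and 5 of WT. In these 10 the set lay 0.12 to 0.44 above its overall mean, with a median of 0.31. In the other 86 libraries it lay between -0.24 and 0.25, with a median of -0.04. Among these, the set lay at 0.18 in RERE CT16 replicate 2 with an index of -0.06. It lay at 0.13 in BRE CT4 replicate 3 with an index of 0.04. The libraries of high index were not spread evenly over the day: the mean index was 0.28 at CT0 in RERE and 0.22 at CT0 and 0.18 at CT4 in WT, against -0.08 to 0.03 at the other times of these genotypes. The summed levels of 6 basal keratinocyte markers were 13750 to 17980 RPKM in the 10 libraries. In the other 86 they were 11250 to 17090 RPKM. These ranges overlapped, but the lowest of the 10 was near the genotype medians. Those were 13680 in RERE, 14060 in EpiRE, 13310 in BRE and 14050 in WT. Suprabasal sums were 7266 to 14380 in the 10 and 7537 to 15770 in the others. T cell sums were 19.58 to 40.44 and 8.088 to 48.13. Whether cell composition differed in the 10 libraries was not tested. What sets the index apart in these libraries was not tested. The counts of rhythmic members in WT and RERE and the hours of the members' peaks are given with and without them. Differences of rhythm from WT and the rhythms of other gene lists are given only with them.

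**Figure D2:**
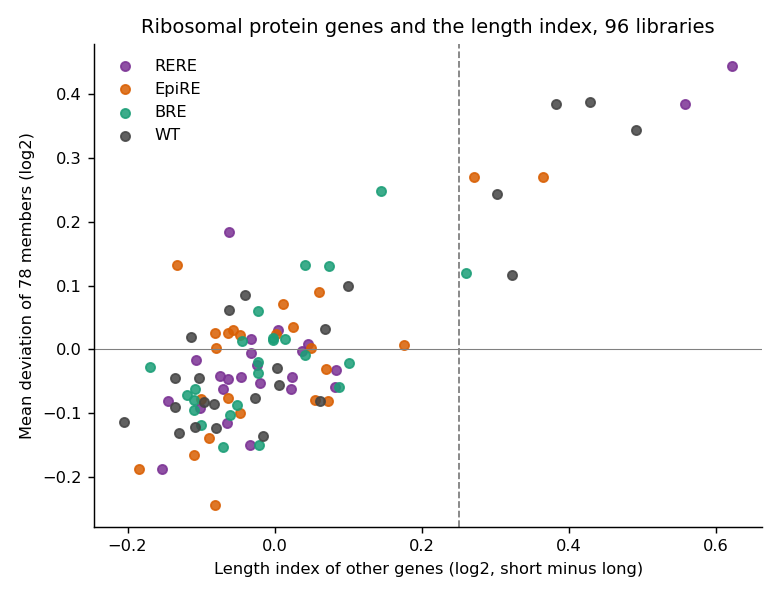
Deviation of the mean of the 78 members from its overall mean (log2) against the length index (log2) for each of the 96 libraries, by genotype. The dashed line is an index of 0.25, and the 10 libraries to its right lie at 0.12 to 0.44 on the vertical axis.

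Across the day, few ribosomal protein genes passed the test for a 24 h rhythm, and all that passed did so in WT. In WT, 7 of 78 members (8.97%) had a limma adjusted p under 0.05 for a fitted 24 h cosine, against 33.1% of all genes tested. They were Rpl29, Rpl41, Rpl10a, Rpl7a, Rpl11 and Rplp2 of the large subunit and Rps26 of the small subunit. Their amplitudes, the height of the cosine above its mean, were 0.13 to 0.22 on the log2 scale. The median amplitude in WT was 0.10 over the members and 0.12 over all genes tested. An unadjusted p under 0.05 was found for 21 members, against 5083 of all 11087 genes.

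Rpl41, the smallest ribosomal protein, had the largest amplitude in WT. It measured 10.11, 10.18, 9.83 and 9.75 log2 RPKM in the 4 WT libraries of CT0, 9.68, 9.93, 10.34 and 10.34 at CT4, 9.73, 9.86, 9.85 and 10.23 at CT8, 9.75, 9.89, 9.99 and 9.62 at CT12, 9.68, 9.62, 9.62 and 9.58 at CT16, and 9.62, 9.54, 9.81 and 9.75 at CT20. The highest libraries were at CT4 and CT8, but the libraries of CT0, CT4 and CT8 spread widely, and the lowest library of each lay within the range of CT20. The fitted amplitude was 0.22 ± 0.05 (SE) with a peak at CT4.42 (adjusted p = 0.0123). In RERE the same gene had an amplitude of 0.14 ± 0.05 with a peak at CT2.99 (adjusted p = 0.0985).

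Rpl29, a heparin-binding protein of the large subunit, had the lowest p in WT. It measured 8.42, 8.67, 8.38 and 8.46 log2 RPKM at CT0, 8.46, 8.59, 8.63 and 8.69 at CT4, 8.36, 8.44, 8.32 and 8.62 at CT8, 8.38, 8.60, 8.52 and 8.31 at CT12, 8.34, 8.23, 8.27 and 8.15 at CT16, and 8.24, 8.17, 8.50 and 8.22 at CT20. All libraries of CT0 and of CT4 were above all 4 of CT16, and the ranges of the other times overlapped that of CT16. Its amplitude was 0.15 ± 0.04 with a peak at CT4.89 (adjusted p = 0.0118). Leaving out replicate 4 of every time left no rhythmic member in WT, leaving out replicate 2 left 2, and leaving out replicate 3 left 1. Leaving out replicate 1 left 9. Counts over all genes are not given for these settings, which hold fewer libraries. A change of members alone thus cannot be told from one over all genes.

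The other 5 rhythmic members peaked within the same hours. Rpl10a, the protein of the L1 stalk, had an amplitude of 0.16 ± 0.04 with a peak at CT5.14 (adjusted p = 0.0228), and Rps26 had 0.18 ± 0.05 at CT4.94 (adjusted p = 0.0334). Rpl7a, whose start carries the longest of the runs shown above, had 0.13 ± 0.04 at CT3.67 (adjusted p = 0.0334). Rpl11 had 0.15 ± 0.04 at CT5.11 (adjusted p = 0.0338), and Rplp2 had 0.17 ± 0.05 at CT4.54 (adjusted p = 0.0473). Among all 78 members, 66 had their fitted WT peak within 2 h of CT4, 8 within 2 h of CT0, 3 of CT8 and 1 of CT12. Because the members largely rise and fall together from library to library, these peaks are not independent of each other.

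These WT calls moved with the 5 WT libraries of high length index. Without them 1 member passed, Rps19, a small subunit protein known from Diamond-Blackfan anaemia in humans, with an amplitude of 0.13 and a peak at CT14.89 (adjusted p = 0.034, with 0.00476 the lowest over all settings), while 16.3% of all genes did. With the index as a term in the fit, 22 members passed, against 2885 of all 11087 genes tested, and they included 6 of the 7. Their fitted peaks then lay between CT6.57 and CT13.96, with a median of CT11.2. The count of rhythmic members and the hour of their peak in WT therefore rest on how these libraries are treated.

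In the reconstituted genotypes no member passed the rhythm test. In RERE 0 of 78 passed, against 19.4% of all genes. There 1 member had an unadjusted p under 0.05, against 3837 of all 11032 genes. The lowest adjusted p values in RERE were 0.0985 for Rpl41, 0.25 for Rpl10a and 0.255 for Rpl29. In EpiRE 0 of 78 passed, against 0% of all genes. There 2 members had an unadjusted p under 0.05, against 1397 of all 11061 genes. The lowest in EpiRE were Rps19 (peak CT12.9, adjusted p = 0.329), Rpl31 of the tunnel exit (CT12.12, adjusted p = 0.395) and Rpl12 of the stalk base (CT12.49, adjusted p = 0.403). In BRE 0 of 78 passed, against 1.14% of all genes. There 35 members had an unadjusted p under 0.05, against 2071 of all 10970 genes. Because members largely rise and fall together, these 35 are not independent of each other. The lowest in BRE were Rps9 of the mRNA entry side (amplitude 0.09, peak CT7.57, adjusted p = 0.0806) and the zinc-binding Rps29 (0.14, CT11.19, adjusted p = 0.103). Without the libraries of high length index 3 members passed in RERE (Rpl41 and Rps29 among them), against 17.3% of all genes. With the index as a term 12 of 78 passed in RERE, a share close to the 15.3% of all genes. In BRE 4 of 78 passed with that term, against 1.01% of all genes. limma-voom on recovered reads also called 0 members in each of RERE, EpiRE and BRE, and 10 in WT. Its counts over all genes are not given, so the 10 cannot be set against a share of all genes.

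The fitted peaks of the members differed in hour between genotypes in these fits, and the hours moved when the length index was taken into account. Within 2 h of CT0 lay 49 members in RERE, 1 in EpiRE, 1 in BRE and 8 in WT. Within 2 h of CT12 lay 1 in RERE, 58 in EpiRE, 22 in BRE and 1 in WT. In BRE the most, 47, lay within 2 h of CT8. Median amplitudes of the members were 0.05 in RERE, 0.06 in EpiRE, 0.07 in BRE and 0.10 in WT. Those of all genes tested were 0.10 in RERE, 0.07 in EpiRE, 0.07 in BRE and 0.12 in WT. With the index as a term, 34 members in RERE, 54 in EpiRE, 48 in BRE and 44 in WT peaked within 2 h of CT12, and 1 in RERE, 1 in EpiRE, 1 in BRE and 0 in WT within 2 h of CT0. Without the libraries of high index, 47 in RERE, 62 in EpiRE, 26 in BRE and 25 in WT peaked within 2 h of CT12. The index itself differed by time in RERE and WT, so in these 2 genotypes its effect and that of time cannot be fully told apart. Most of these hours describe fits that were not called, as the counts above show.

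**Figure D3:**
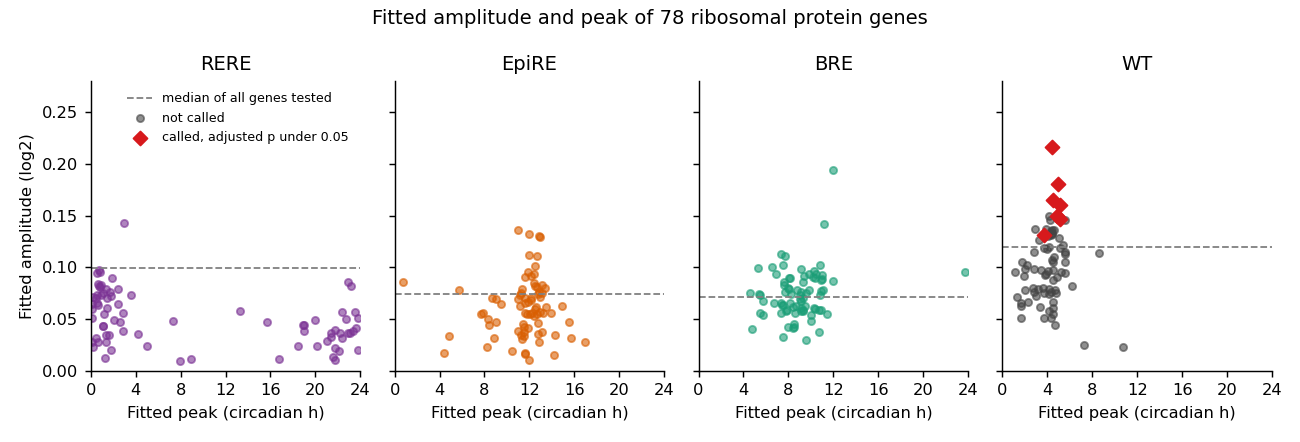
Fitted amplitude (log2) against fitted peak (circadian hours) of each of the 78 members in RERE, EpiRE, BRE and WT. Red diamonds are members with a limma adjusted p under 0.05, 7 in WT and 0 in the other genotypes, and the dashed line is the median amplitude of all genes tested.

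The differences in rhythm were tested directly. The size and phase of the cosine differed from WT in 0 of 78 members in RERE (0% of all genes), 0 in EpiRE (1.57% of all genes) and 0 in BRE (5.69% of all genes). Unadjusted p values under 0.05 were found for 1 member in RERE, 10 in EpiRE and 6 in BRE. Over all genes there were 837 of 11051 in RERE, 1765 of 11059 in EpiRE and 2185 of 11016 in BRE. limma-voom also called 0 members in each genotype, with its counts over all genes not given. The lowest adjusted p values were 0.653 for Rpl29 in RERE, 0.22 for Rpl10a in EpiRE and 0.191 for Rps2 in BRE. The median amplitude of the difference from WT was 0.09 for members and 0.09 for all genes in RERE, 0.13 and 0.11 in EpiRE, and 0.10 and 0.11 in BRE. That 7 members passed in WT and 0 in the other genotypes is thus not shown to be a difference between genotypes. The 3 tests share the WT libraries.

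Mean levels over the day were close in all genotypes. Over the 78 members and all 6 pairs of genotypes, fitted differences ran from -0.19 to 0.15 on the log2 scale, that is 0.874-fold to 1.107-fold. The set mean was 8.62 in RERE (lowest library 8.44, median 8.58, highest 9.07), 8.62 in EpiRE (8.38, 8.63 and 8.90), 8.61 in BRE (8.47, 8.60 and 8.87) and 8.65 in WT (8.49, 8.58 and 9.01). The 4 ranges overlapped almost wholly. In whole epidermis a lower value may come from fewer cells of a type or from less RNA per cell, and these cannot be told apart.

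In RERE against WT 0 of 78 members differed, against 2.14% of all genes. No member had an unadjusted p under 0.05, against 1530 of all 11051 genes. Differences lay between -0.09 and 0.04, with 95% intervals inside -0.21 and 0.13, and their median was -0.02 against -0.01 for all genes. In EpiRE against WT 0 of 78 differed, against 2.23% of all genes. An unadjusted p under 0.05 was found for 1 member (Rps4l, -0.13, adjusted p = 0.336), against 1123 of all 11059 genes. Differences lay between -0.13 and 0.02, with intervals inside -0.25 and 0.11, and their median was -0.03 against 0.00 for all genes. In RERE against EpiRE 0 of 78 differed, against 0.00906% of all genes. Here too no member had an unadjusted p under 0.05, against 653 of all 11042 genes. limma-voom called 0 members in each of these 3 comparisons, with its counts over all genes not given.

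BRE had far more genes at another level than WT than RERE or EpiRE had, but few of them were ribosomal protein genes. In BRE against WT 36.9% of all genes passed, 1382 higher and 2684 lower, and 2 of 78 members, 1 higher and 1 lower. The median difference was -0.03 for members and -0.05 for all genes. Of the members, 10 had an unadjusted p under 0.05, against 5058 of all 11016 genes. In RERE against BRE 2 of 78 members passed, against 27.5% of all genes, and in EpiRE against BRE 2 of 78, against 34% of all genes. The median difference was 0.01 for members and 0.04 for all genes in RERE against BRE, and 0.00 for members and 0.05 for all genes in EpiRE against BRE. All 3 comparisons share the BRE libraries.

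**Figure D4:**
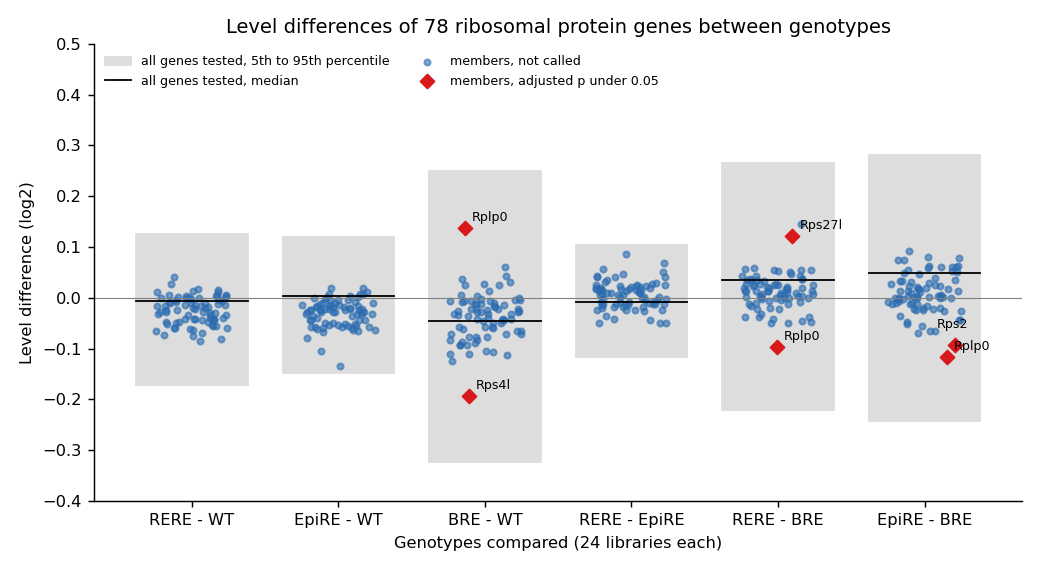
Fitted level differences (log2) of the 78 members in 6 comparisons of genotypes, each named as first minus second. Grey bands hold the 5th to 95th percentile of all genes tested, the line is their median, and red diamonds are members with a limma adjusted p under 0.05, none further from 0 than -0.19.

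Rplp0, the P stalk anchor (ENSMUSG00000067274, chr5:115559467-115563727, plus strand, mm10), was higher in BRE than in each of the other genotypes. It measured 10.24 at lowest, 10.36 at the median and 10.77 at highest in RERE, 10.00, 10.36 and 10.64 in EpiRE, 10.26, 10.48 and 10.62 in BRE, and 10.14, 10.31 and 10.67 in WT. The ranges overlapped, but 23 of 24 BRE libraries were above the WT median. BRE exceeded WT by 0.14 ± 0.03 (SE) on the log2 scale (95% interval 0.07 to 0.20, 1.10-fold, adjusted p = 0.000994) and was higher at 6 of 6 times. Against BRE, RERE was lower by 0.10 (difference -0.10, adjusted p = 0.013) and EpiRE by 0.12 (difference -0.12, adjusted p = 0.00252). The difference of RERE did not pass without replicate 1 (-0.09, adjusted p = 0.0689) or replicate 4 (-0.08, adjusted p = 0.175). The other P stalk genes did not pass: in BRE against WT, Rplp1 differed by 0.01 (adjusted p = 0.879) and Rplp2 by -0.08 (adjusted p = 0.138).

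Rplp0 was also the most stable call. BRE against WT passed under all 12 alternative settings tried, at 0.13 to 0.19, and was 0.19 without the libraries of high length index (adjusted p = 4.17e-07, the lowest of a range up to 0.0106). In that same setting 8 members passed, all higher in BRE: Rpl11, Rpl12, Rpl15, Rplp0, Rplp1, Rps15a, Rps2 and Rps7, while 33.6% of all genes passed. With the index as a term 8 members and 4191 of all 11016 genes passed, with Rpl12, Rpl15, Rplp0, Rps15a and Rps2 higher and Rpl35a, Rps15 and Rps4l lower. The median marker sum of 6 suprabasal keratinocyte genes was 11660 RPKM in RERE, 11280 in EpiRE, 13090 in BRE and 10650 in WT, and 5 of these 6 were higher in BRE than in WT. Lower in BRE than in WT were 2 of 6 basal keratinocyte, 3 of 5 T cell and 1 of 5 Langerhans and myeloid genes tested. Also lower were 3 of 4 hair follicle and 2 of 2 melanocyte genes, while 1 of 2 sebaceous genes was higher. Of all 11016 genes tested, 2684 were lower and 1382 higher. The part of these markers in the Rplp0 and the other BRE differences was not tested.

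Rps2 (ENSMUSG00000044533, chr17:24718116-24721929, plus strand), a protein of the mRNA entry side of the small subunit, was lower in EpiRE than in BRE. It measured 8.44 at lowest, 8.53 at the median and 9.03 at highest in RERE, 7.91, 8.56 and 8.86 in EpiRE, 8.50, 8.61 and 8.84 in BRE, and 8.36, 8.53 and 8.89 in WT. The EpiRE libraries reached both below and above the BRE range. The difference of EpiRE from BRE was -0.09 ± 0.04 (adjusted p = 0.0478), lower at 6 of 6 times, and it did not pass when any 1 of the 4 replicates was left out. BRE differed from WT by 0.06 (adjusted p = 0.147).

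**Figure D5:**
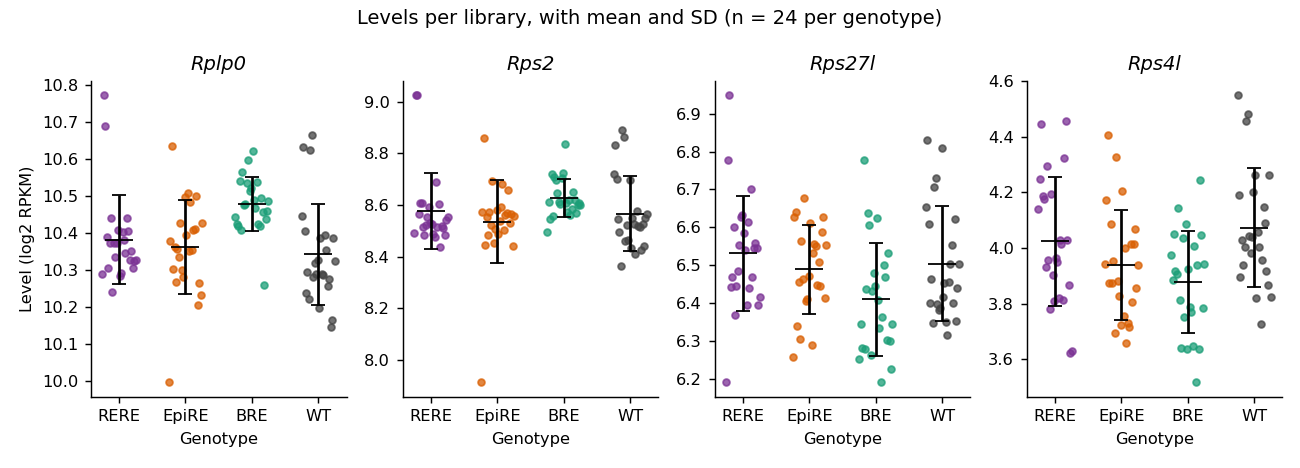
Log2 RPKM of Rplp0, Rps2, Rps27l and Rps4l in each of the 24 libraries of RERE, EpiRE, BRE and WT (points), with mean ± SD. Rplp0 averages 10.48 in BRE and 10.34 in WT, and Rps4l 3.88 in BRE and 4.07 in WT, with overlapping ranges in every panel.

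Of the members named as relatives of another member, 2 passed a level test, both lower in BRE. Rps4l (ENSMUSG00000063171, chr6:148354656-148355598, plus strand), a relative of Rps4x, measured 3.62 at lowest, 3.99 at the median and 4.46 at highest in RERE, 3.66, 3.91 and 4.41 in EpiRE, 3.52, 3.91 and 4.24 in BRE, and 3.73, 4.04 and 4.55 in WT. BRE differed from WT by -0.19 ± 0.06 (0.874-fold, adjusted p = 0.00514) and was lower at 5 of 6 times. Rps4x itself differed by -0.03 (adjusted p = 0.484). Rps4l minus Rps4x was -4.78 on the log2 scale in RERE, -4.84 in EpiRE, -4.90 in BRE and -4.74 in WT. How reads shared by the pair were placed is not known, so the level of Rps4l is uncertain. Its difference in BRE was -0.14 without replicate 4 of both genotypes (adjusted p = 0.103) and -0.12 without the libraries of high length index (adjusted p = 0.081), and adjusted p ran from 0.00225 to 0.103 over all alternatives.

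Rps27l (ENSMUSG00000036781, chr9:66946086-66949516, plus strand), a p53-responsive relative of Rps27, measured 6.19 at lowest, 6.54 at the median and 6.95 at highest in RERE, 6.26, 6.49 and 6.68 in EpiRE, 6.19, 6.39 and 6.78 in BRE, and 6.32, 6.45 and 6.83 in WT. The ranges overlapped, and 22 of 24 RERE libraries were above the BRE median. RERE differed from BRE by 0.12 ± 0.04 (1.09-fold, adjusted p = 0.0341), which did not pass after median-centring (0.09, adjusted p = 0.069) or without replicate 2, 3 or 4. BRE differed from WT by -0.09 (adjusted p = 0.0756). Rps27l lay below Rps27 by a difference of -2.46 in RERE, -2.50 in EpiRE, -2.55 in BRE and -2.55 in WT. The third pair, Rpl36al below Rpl36a, differed by -1.30 in RERE, -1.27 in EpiRE, -1.28 in BRE and -1.30 in WT, with no call for either gene in any level comparison.

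Lists of genes that build ribosomes, use them or control them were tested in the same fits. Over all genes, BRE against WT had 2684 of 11016 lower and 1382 higher, EpiRE against BRE had 2520 of 11002 higher, and RERE against BRE had 1910 of 10991 higher. In BRE against WT, 20 of 47 ribosome biogenesis genes were lower and 0 higher (median -0.08), among them Riok2, a kinase that matures the small subunit (-0.26, adjusted p = 6.13e-06), and Ubtf, a factor of RNA polymerase I (-0.14, adjusted p = 2.11e-05). In EpiRE against BRE 29 of the 47 were higher (median 0.12), with Riok2 at 0.31 and Ubtf at 0.15, and in RERE against BRE 18 were higher, with Riok2 at 0.29. Of 35 initiation factors 3 were higher and 3 lower in BRE than in WT, with the scaffold Eif4g3 at 0.16 (adjusted p = 6.03e-06) and the start codon factor Eif1b at -0.24 (adjusted p = 0.000154). Of 13 elongation factors and other genes with oligopyrimidine tracts 4 were lower, with Nap1l1, a histone chaperone, at -0.17 and Gas5, a host of small nucleolar RNAs, at -0.21. Of 23 genes of the TOR pathway 2 were lower: Deptor, an inhibitor of TOR complexes (-0.82, adjusted p = 2.99e-10), and Eef2k, the kinase of elongation factor 2 (-0.14, adjusted p = 0.00443). Of the 6 ribosomal genes outside the naming rule 0 were called in BRE against WT (Fau -0.11, adjusted p = 0.0841) and 0 in RERE against BRE. In EpiRE against BRE 1 was called, Rpl22l1, lower in EpiRE (-0.12, adjusted p = 0.0353), where 34% of all genes passed.

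The same lists were tested for rhythm in WT, where 33.1% of all genes passed. There 10 of 23 TOR pathway genes passed, with Eef2k at an amplitude of 0.23 and a peak at CT12.81 (adjusted p = 4.4e-05) and Deptor at 0.39 and CT13.31. Of 35 initiation factors 9 passed, with Eif6, which keeps the subunits apart, at 0.19 and CT3.37 (adjusted p = 0.00106) and Eif4g2 at 0.12 and CT21.19. Of 47 biogenesis genes 9 passed, with Utp20, of the small subunit processome, at 0.22 and CT16.97. Of 13 elongation and oligopyrimidine genes 2 passed (Hnrnpa1 and Eef1g), and of the 6 ribosomal genes outside the rule 1, Rpl22l1, at 0.17 and CT1.02 (adjusted p = 0.045). In RERE, where 19.4% of all genes passed, 6 of 23 TOR pathway genes, 2 of 35 initiation factors, 4 of 47 biogenesis genes and 1 of 13 elongation and oligopyrimidine genes passed. These lists share all their libraries with the ribosomal protein genes, and the difference between lists was not tested. Their rhythm counts are for all libraries, those of high length index included.

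The authors' deposited tables of rhythm statistics gave few members as well. By BIOCYCLE, none of the 78 members had a q under 0.05 in any genotype of the authors' deposited table, whose counts over all genes were 213 in RERE, 0 in EpiRE, 0 in BRE and 950 in WT. The lowest member q in WT in that authors' deposited table was 0.115, for Rpl41. By JTK, 0 members in RERE, EpiRE and BRE and 2 in WT had a q under 0.05 in the authors' deposited table, whose counts over all genes were 1231 in RERE, 0 in EpiRE, 3 in BRE and 2187 in WT. The 2 members in WT were Rpl29 and Rpl41, with 0.0305 as the lowest q in the authors' deposited table.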

How the data were processed

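The authors deposited per-library log2 RPKM values of 22497 genes with BIOCYCLE statistics, and JTK statistics with p-values and q-values in tables of their own. The submitters' processing notes name Trimmomatic 0.36, HISAT2 2.2.1, SAMtools 1.3.1, featureCounts 1.6.0, edgeR and mm10, and the labels describe a stranded kit with molecular identifiers. How strand, identifiers and reads that match several places were handled in counting is not stated there, so genes with near-identical processed copies, as many ribosomal protein genes have, and genes with antisense partners are uncertain. The columns per library of the JTK tables (96) carry codes that match no label and were not used; the times of EpiRE and BRE libraries rest on the BIOCYCLE column names. Whole reads were recovered from the deposited log2 values, assuming a prior of 0.25 reads, with 99.97% of values within 0.1 read of a whole number. No pair of replicates was closer than sampling noise (chi-square per degree of freedom 3.99 to 73.1 over 144 pairs), so all 96 were kept.

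The log2 RPKM values were fitted with limma 3.58.1 (R 4.3.3, trend on) on genes with a mean of 0 or more, with p-values adjusted by Benjamini-Hochberg over all genes and a threshold of 0.05. Rhythm was the F test of a 24 h cosine and sine within a genotype (24 libraries), level a genotype term beside time as a factor (48 libraries), and a difference of rhythm the interaction of genotype with cosine and sine. Each library is labelled as a separate mouse. Genes were named by rule: up to 6 called members per rhythm test, up to 5 per direction for levels against WT, otherwise the 3 of lowest p, the 2 highest and 2 lowest members, the P stalk, Rpsa, Rps6, Rpl5, Rpl11 and relatives of members, and up to 2 per other list. Rplp2 in the WT rhythm and the members gained or lost under settings with the length index are named beyond it, having been chosen after their values were seen. The members and lists were chosen with earlier results of these data known. Alternatives were another pseudocount (RPKM + 1), no filter, median-centring, a replicate block, time as a factor, 1 fit over all libraries, limma-voom on recovered reads, each replicate left out and, added after seeing the data, the length index as a term or libraries of high index left out. The code was tested on simulated data. A few genes are not reported here. Gene positions are those of GENCODE vM21 on mm10.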

Additional observations from a re-analysis of the deposited data

Results flagged for a closer look

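In 24 groups of 4 libraries each, the set mean and 5 genes (Rpl41, Rplp0, Rps2, Rps27l and Rps4l) were searched for 1 library far from the other 3, which made 144 searches, of which chance alone would flag about 1 in 20. There were 3. In RERE at CT16, replicate 2 had a set mean 0.183 above its overall mean, while the other 3 libraries lay between -0.062 and -0.047. Rpl41 in BRE at CT16 measured 9.833 log2 RPKM in replicate 3, against 9.66 to 9.668 in the others. Rps27l in WT at CT8 measured 6.81 in replicate 4, against 6.382 to 6.397 in the others.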

How the results depend on the processing

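No called difference of a named gene changed direction under an alternative, but differences that were not called did: Rps19 in BRE against WT was -0.04, and 0.02 without libraries of high index. The 2 members called there, 1 higher and 1 lower, became 8 higher in that setting. The median level differences and the share of summed RPKM moved by less than the spread between libraries. Most affected was the count of rhythmic members in WT, 7 of 78: it was 12 after median-centring, 3 with no filter, 20 with 1 fit over all libraries, 1 with time as a factor, 22 with the length index as a term, 1 without libraries of high index, and 0 to 9 when 1 replicate was left out (0 without replicate 4, 1 without replicate 3, 2 without replicate 2). In RERE, where 0 passed, the count was 1 after median-centring, 1 with time as a factor, 12 with the length term and 3 without libraries of high index. In BRE it was 4 after median-centring and 4 with the length term. Over all genes, WT rhythm was called for 3675 of 11087 in the main fit. It was called for 2885 of 11087 with the length term and 1809 of 11100 without libraries of high index. With the length term, called members in WT thus rose while calls over all genes fell. Members at another level in BRE than in WT numbered 3 after median-centring, 3 in 1 fit over all libraries, 8 with the length term and 8 without libraries of high index, and 1 to 2 with a replicate left out (1 without replicate 4). For RERE against BRE they were 1 after median-centring, 3 with limma-voom, 3 in 1 fit over all libraries, 8 with the length term, 9 without libraries of high index and 0 to 2 with a replicate left out (0 without replicate 4). For EpiRE against BRE they were 6 after median-centring, 1 with 1 fit over all libraries, 7 with the length term, 4 without libraries of high index and 1 whichever replicate was left out. Over all genes, BRE against WT had 4066 calls in the main fit, 4191 with the length term and 3702 without libraries of high index. In the same order, RERE against BRE had 3020, 3412 and 3419, and EpiRE against BRE 3737, 3984 and 3803. For settings that do not use the index, counts over all genes are not given. A change of members alone cannot be told from one over all genes there. Causes other than fewer libraries or a term for the index were not tested.

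Replicate numbers showed no general pairing of the libraries. Same-numbered libraries of different genotypes at 1 time had deviations with a median correlation of 0.02, against -0.01 for other pairs. The same-numbered pairs ran from -0.34 to 0.49 (44 of 144 over 0.1), so a pairing within some groups is not excluded. With the replicate block 6 members were rhythmic in WT, and no other count of called members differed. Of single genes, Rplp0 in BRE against WT passed under 12 of 12 alternatives, Rps4l under 10 (lost without replicate 4 and without libraries of high index), Rps27l in RERE against BRE under 8 (lost after median-centring and without replicate 2, 3 or 4), Rps2 in EpiRE against BRE under 7, and the WT rhythms under 6 to 10 of 13. Reads per library averaged 226.6 for the least covered member, Rps4l, and 6436 for the median member.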

Other observations

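Some members have fitted rhythms with peaks near CT12 to CT16 once the length index is a term of the fit. They are given as values, having been chosen after their values were seen. The mean index itself differed by time, at 0.28 at CT0 and -0.07 at CT12 in RERE. In WT it was 0.22 at CT0, 0.18 at CT4 and -0.07 at CT12. The term and time of day therefore cannot be fully told apart in these fits. Rps19, a small subunit protein known from Diamond-Blackfan anaemia in humans, had an amplitude of 0.13 and a peak at CT14.07 in RERE (adjusted p = 0.0187) and 0.15 and CT13.96 in WT (adjusted p = 0.00476) with that term. Over all settings its adjusted p ran from 0.0187 to 0.909 in RERE. In WT the lowest was 0.00476, and 1 fit over all libraries gave an amplitude of 0.02 with an adjusted p of 0.896. With the term, 12 members passed in RERE, against 15.3% of all genes, with peaks between CT11.5 and CT15.21. In BRE 4 passed, against 1.01% of all genes, with Rpl31, Rps18 and Rps29 among them.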
